A study of Homo sapiens with 12 samples.

Results

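The genes described here are the metallothioneins (MT1 genes, MT2A, MT3 and MT4), the metal-responsive transcription factor MTF1 and the zinc transporters of the SLC30 and SLC39 families. They were chosen by symbol from a list of 36 genes, and the brightest probe set that names a single gene was taken for each. Of these, 35 genes were measured, out of 18417 genes with such a probe set on the array: 10 metallothioneins, MTF1, 10 SLC30 genes and 14 SLC39 genes. MT1A had no probe set of its own and was left out.

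The samples were T47D-MTVL cells, a derivative of the human T47D breast carcinoma line that carries 1 integrated copy of the MMTV promoter. All cells were transfected with an siRNA and then kept without serum for 48 h before a treatment of 6 h. The 4 conditions were control siRNA with ethanol vehicle (siCt EtOH), control siRNA with 10 nM of the synthetic progestin R5020 (siCt R5020), siRNA against the chromatin remodeler CHD8 with vehicle (siCHD8 EtOH) and the same siRNA with 10 nM R5020 (siCHD8 R5020). Each condition had 3 arrays, labelled as biological replicates, and the values are log2 intensities. CHD8 itself had log2 intensities of 5.70, 5.71 and 5.91 in siCt EtOH, 5.52, 5.24 and 5.29 in siCt R5020, 5.42, 5.11 and 5.04 in siCHD8 EtOH and 4.77, 4.62 and 4.81 in siCHD8 R5020. It was lower after its siRNA without overlap at either treatment, by 0.58 in vehicle (adjusted p = 0.0711, limma) and 0.62 in R5020 (adjusted p = 0.0627), and by 0.60 ± 0.09 (SE) averaged over both (adjusted p = 0.00403), so that its transcript was reduced and not removed. R5020 also lowered CHD8, by 0.44 averaged over both siRNAs (adjusted p = 0.00196). Arrays of a condition correlated at 0.989 to 0.996. On siCt EtOH replicate 3, 5.2% of probe sets lay more than 0.5 from both other replicates, and on siCHD8 EtOH replicate 1 3.59%, against 0.712% to 3.04% on the other arrays. Calls that changed with both of these arrays left out are named in the last paragraph.

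Metallothioneins are small cysteine-rich proteins that bind zinc, copper and cadmium, and most of their human genes lie side by side on chromosome 16. When free zinc rises, MTF1 binds short metal response elements in their promoters and in that of the zinc exporter SLC30A1. SLC30 proteins move zinc out of the cytosol, into organelles or out of the cell, and SLC39 proteins move it into the cytosol. Metallothionein genes are also known to respond to glucocorticoids, hormones whose receptor recognises the same DNA element as the progesterone receptor.

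Promoters of 27 of the measured genes were found in the RefSeq promoter table (GRCh38.p14), and the 250 bases before each start were searched on both strands for the core of the metal response element, TGCACNC or TGCGCNC. At least 1 match was found in 24.8% of all 35116 promoters and 3 or more in 1.58%. The 5 metallothionein promoters in the table held 3 or more each, with 8 in MT1H, 7 in MT2A, 4 in MT1X and 3 each in MT1B and MT4. Promoters of 4 of them are shown, whose genes were called higher with R5020 under both siRNAs. MT4 was called higher in siCHD8 and in the average, but not in siCt, and is not shown. The promoter of SLC30A1 is shown because it is the exporter with the largest R5020 change. Matches are in capitals, and a match on the opposite strand reads GNGTGCA or GNGCGCA. The stretches are chr16:56608334-56608583 for MT2A, chr16:56682220-56682469 for MT1X, chr16:56669564-56669813 for MT1H and chr16:56651636-56651885 for MT1B, all on the plus strand, and chr1:211579162-211579411 for SLC30A1 on the minus strand.
MT2A: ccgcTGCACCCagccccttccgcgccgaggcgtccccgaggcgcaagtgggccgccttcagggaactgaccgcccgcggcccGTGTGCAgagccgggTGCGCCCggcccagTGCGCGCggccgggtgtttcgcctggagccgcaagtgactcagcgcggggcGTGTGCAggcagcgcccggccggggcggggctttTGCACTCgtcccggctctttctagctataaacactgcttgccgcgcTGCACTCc
MT1X: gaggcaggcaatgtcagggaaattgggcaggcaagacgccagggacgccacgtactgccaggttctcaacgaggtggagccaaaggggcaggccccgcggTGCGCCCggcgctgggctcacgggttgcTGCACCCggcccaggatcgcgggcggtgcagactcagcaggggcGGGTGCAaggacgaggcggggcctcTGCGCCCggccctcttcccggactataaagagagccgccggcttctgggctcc
MT1H: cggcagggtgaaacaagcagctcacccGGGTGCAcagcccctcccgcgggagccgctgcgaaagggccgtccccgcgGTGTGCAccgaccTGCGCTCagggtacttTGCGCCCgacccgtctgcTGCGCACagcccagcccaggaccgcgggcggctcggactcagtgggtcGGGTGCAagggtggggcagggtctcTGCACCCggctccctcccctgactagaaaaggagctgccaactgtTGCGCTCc
MT1B: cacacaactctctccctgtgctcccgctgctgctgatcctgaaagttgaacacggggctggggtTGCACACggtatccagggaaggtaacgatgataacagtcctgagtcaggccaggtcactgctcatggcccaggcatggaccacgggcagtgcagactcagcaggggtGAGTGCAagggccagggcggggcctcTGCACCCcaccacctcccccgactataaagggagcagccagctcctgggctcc
SLC30A1: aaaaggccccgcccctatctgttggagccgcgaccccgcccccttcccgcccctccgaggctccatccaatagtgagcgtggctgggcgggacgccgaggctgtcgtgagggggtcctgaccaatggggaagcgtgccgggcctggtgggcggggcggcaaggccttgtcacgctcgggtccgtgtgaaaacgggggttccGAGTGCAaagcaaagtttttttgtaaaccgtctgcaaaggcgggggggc
In MT1X, MT1H and MT1B a match began 53 bases before the start and a second, on the opposite strand, 78 or 79 bases before it. In MT2A the matches nearest to these began 54 and 88 bases before the start. Those of MT4, whose promoter is not shown, began 209, 196 and 90 bases before its start. SLC30A1 held a single match, 49 bases before its start. Matches were found in 6 of 11 SLC30 promoters and 5 of 19 SLC39 promoters, and none in the MTF1 promoter. Among these, 3 or more were found only in the promoter of SLC30A2, which is not shown. SLC30A2 was not called for R5020, with differences of -0.07 in siCt and 0.00 in siCHD8. The hormone response element was searched as GNACA and TGTNC with 3 bases between them. In the same 250 bases it was found in 0.327% of all promoters and in none of those of the measured genes. With so low a share, a set of this size would mostly hold none, so its absence tells little. Any element further upstream lies outside this window and was not searched for. These matches describe letters in this window and are no record of binding.

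R5020 raised the transcripts of most metallothioneins, MTF1, SLC30A1 and SLC39A14, and lowered SLC39A1. In siCt cells 11 of the 35 genes were higher and 1 was lower at an adjusted p under 0.05, where 8.1% and 6% of the 21214 probe sets tested were higher and lower. In siCHD8 cells the counts were 10 and 1, against 6.04% and 5.43% of all. Averaged over both siRNAs they were 12 and 1, against 10.4% and 9.72%. Under the fold of 1.5 and p under 0.01 that the methods of the study use, here with the adjusted p, 9 genes were higher and 1 lower in siCt, where 4.4% and 2.15% of all probe sets were.

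Among the metallothioneins, 7 of 10 rose in siCt and 8 of 10 in siCHD8, and none fell. Their median change was 0.75 in siCt and 0.76 in siCHD8 on the log2 scale, where the median over all probe sets tested was -0.05 and -0.02. In siCt the R5020 arrays lay above the vehicle arrays without overlap for 7 of the 10, against 15.3% of all probe sets, and in siCHD8 for 9 of the 10, against 13%.

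MT2A, the most widely expressed metallothionein, had log2 intensities of 9.15, 9.06 and 8.87 on the siCt vehicle arrays and 11.11, 10.98 and 10.95 with R5020. In siCHD8 cells it had 8.99, 8.84 and 9.14 with vehicle and 10.77, 10.79 and 10.99 with R5020. The hormone arrays were far above the vehicle arrays under both siRNAs, and the siCt and siCHD8 values overlapped in vehicle and in R5020. The rise was 1.99 ± 0.12 (SE) in siCt, a 3.96-fold change (adjusted p = 2.32e-08, limma), and 1.86 ± 0.12 in siCHD8, a 3.63-fold change (adjusted p = 5.36e-08). The other MT2A probe sets of the array gave rises of 1.78 and 1.72 in siCt and 1.70 and 1.59 in siCHD8.

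MT1X had 5.42, 5.38 and 5.27 with vehicle and 7.33, 7.34 and 7.19 with R5020 in siCt cells. In siCHD8 cells it had 5.14, 5.42 and 5.45 with vehicle and 6.53, 6.82 and 7.21 with R5020. All R5020 arrays were above all vehicle arrays, and the siCHD8 R5020 arrays were the more spread, with the highest of them inside the siCt range. The rise was 1.93 ± 0.15 in siCt (3.81-fold, adjusted p = 3.2e-07, limma) and 1.52 ± 0.15 in siCHD8 (2.86-fold, adjusted p = 4.23e-06). The difference between these rises was -0.41, with a 95% interval of -0.86 to 0.04 (adjusted p = 0.557).

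MT1G had 5.48, 5.69 and 5.58 with vehicle and 6.81, 6.77 and 6.82 with R5020 in siCt, and 5.73, 5.94 and 5.90 against 6.67, 6.92 and 7.04 in siCHD8. MT1F had 7.28, 7.10 and 6.99 against 8.14, 8.20 and 8.05 in siCt, and 7.13, 6.95 and 7.31 against 7.97, 7.98 and 8.08 in siCHD8. For both genes every hormone array was above every vehicle array of either siRNA. MT1G rose by 1.21 in siCt and 1.02 in siCHD8, each ± 0.11 (adjusted p = 2.73e-06 and 1.81e-05, limma). MT1F rose 2.01-fold in siCt (adjusted p = 2.15e-05) and 1.84-fold in siCHD8 (adjusted p = 8.84e-05).

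MT1H and MT1B were dimmer and rose less evenly. MT1H had 4.25, 4.10 and 4.24 with vehicle and 4.83, 5.19 and 5.17 with R5020 in siCt, and 3.86, 4.55 and 4.15 against 4.69, 4.58 and 5.44 in siCHD8. Its groups did not overlap, although in siCHD8 the highest vehicle array and the lowest R5020 array were 4.55 and 4.58. MT1H rose by 0.87 ± 0.21 in siCt (adjusted p = 0.00978, limma) and 0.71 ± 0.21 in siCHD8 (adjusted p = 0.0344). MT1B had 4.40, 4.33 and 3.84 with vehicle and 4.79, 4.75 and 4.93 with R5020 in siCt, and 4.06, 4.38 and 4.24 against 5.11, 4.87 and 5.10 in siCHD8. The vehicle array at 3.84 was the lowest of the 12, and MT1B rose by 0.64 ± 0.15 in siCt (adjusted p = 0.00745) and 0.80 ± 0.15 in siCHD8 (adjusted p = 0.00154). Without that array, siCt EtOH replicate 3, MT1B rose by 0.46 in siCt (adjusted p = 0.0284). The MT1H call in siCHD8 was lost without siCHD8 EtOH replicate 1 (adjusted p = 0.14) or replicate 3 (0.0852) and without siCHD8 R5020 replicate 3 (0.169, with a rise of 0.45). It was also lost with all probe sets of the table tested (0.0969), with array weights (0.114) and with the 2 compared conditions fitted alone (0.0895).

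MT1M and MT4, the latter known from stratified epithelium, had means over the 12 arrays of 2.49 and 3.02, under 3.10, the 95th percentile of 360 probe sets for olfactory receptors, genes that breast cells are not known to use. The MT4 means with R5020, 3.25 in siCt and 3.35 in siCHD8, lay above that level. MT1M had 2.29, 2.12 and 2.47 against 2.74, 2.91 and 2.54 in siCt and 2.13, 2.20 and 2.20 against 2.84, 2.69 and 2.73 in siCHD8. It rose by 0.44 ± 0.12 in siCt (adjusted p = 0.0238, limma) and 0.58 ± 0.12 in siCHD8 (adjusted p = 0.00451). MT4 had 2.65, 3.03 and 2.81 against 3.13, 2.88 and 3.73 in siCt, which overlap, and 2.49, 2.88 and 2.60 against 3.41, 3.16 and 3.48 in siCHD8, which do not. MT4 rose by 0.69 ± 0.19 in siCHD8 (adjusted p = 0.0238), and its difference of 0.42 in siCt was not called (adjusted p = 0.157). Its average of 0.55 over both siRNAs was called (adjusted p = 0.00662, limma). The MT4 responses differed by 0.27, with a 95% interval of -0.29 to 0.83 (adjusted p = 0.736), which was not called. The MT1M call in siCt was lost without siCt EtOH replicate 1 (adjusted p = 0.0619) or 2 (0.0874) and without siCt R5020 replicate 1 (0.0726) or 2 (0.109), and with the compared conditions fitted alone (0.0657). The MT4 call in siCHD8 was lost without siCHD8 EtOH replicate 1 (0.0882) or 3 (0.0687) and without siCHD8 R5020 replicate 1 (0.0798) or 3 (0.0975), and with all probe sets of the table tested (0.0713).

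MT1E and MT3 did not pass the test in any comparison. MT1E had 5.05, 4.15 and 4.42 against 4.41, 4.63 and 4.25 in siCt, and 4.01, 4.13 and 4.44 against 4.67, 4.66 and 4.64 in siCHD8. The siCt groups overlap, with the highest value on a vehicle array, and the siCHD8 groups do not. Its difference was -0.11 in siCt (adjusted p = 0.742, limma) and 0.46 in siCHD8 (adjusted p = 0.147), and averaged over both 0.18 with a 95% interval of -0.11 to 0.46. The siCHD8 difference of MT1E was called under 2 of 25 alternatives, without siCt EtOH replicate 1 and with the compared conditions fitted alone. The siCt difference ran from -0.31 to 0.14 under the alternatives and was never called. MT3, the metallothionein best known from the brain, lay between 5.45 and 6.05 on all 12 arrays, with differences of -0.15 in siCt and 0.00 in siCHD8.

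**Figure D1:**
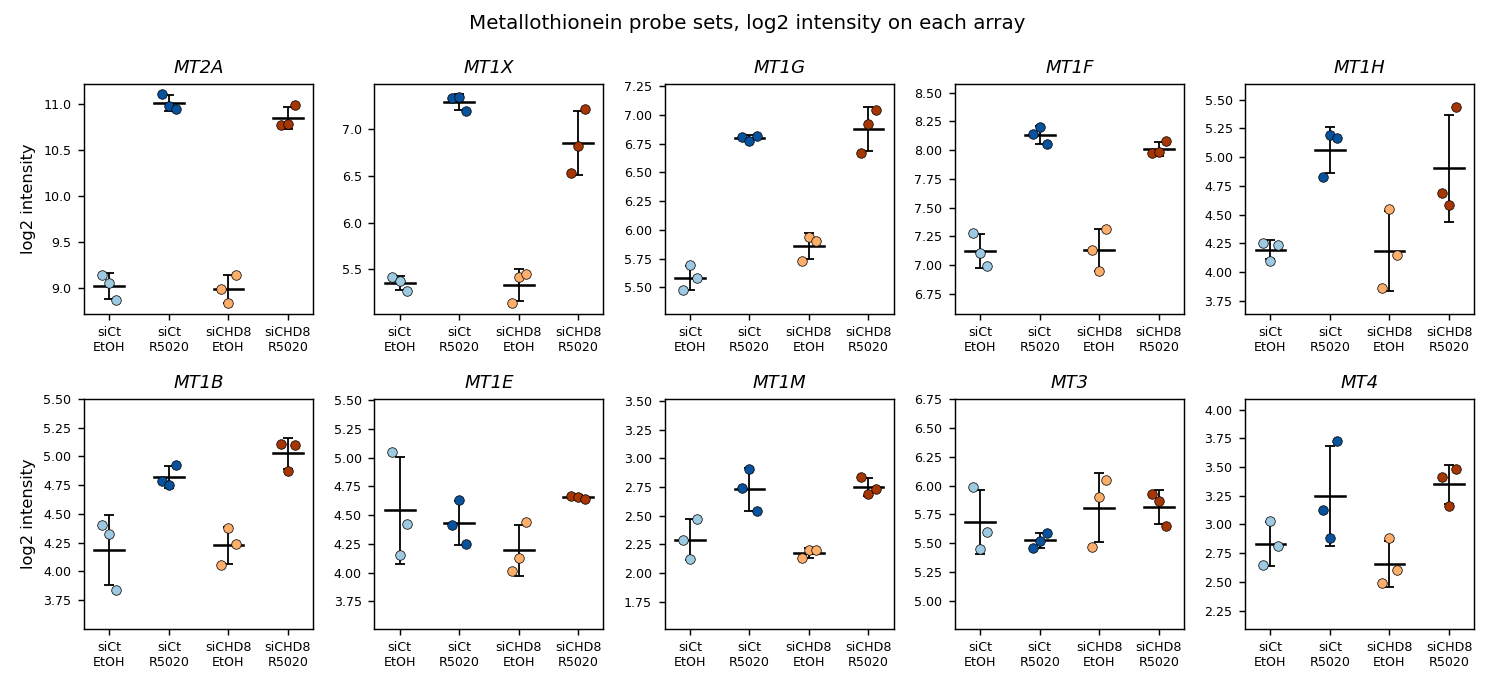
Log2 intensity (y axis, a separate range in each panel) of the 10 metallothioneins on the 12 arrays, by siRNA and treatment (x axis). Points are arrays, horizontal bars the means and whiskers ± 1 SD (n = 3); MT2A, MT1X, MT1G and MT1F show R5020 arrays well above vehicle arrays under both siRNAs, and MT1E and MT3 do not.

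Metallothionein genes are near copies of each other, so their probe sets can share targets, and the members are not independent of each other. Transcribed pseudogenes with probe sets of their own moved with them. MT1DP changed by 1.02 in siCt and 0.59 in siCHD8, MT1JP by 0.84 and 0.73, MT1IP by 0.40 and 0.49, and MT1HL1, a copy on another chromosome, by 0.92 and 0.96, each called in both. MT1P3 was called higher only in the average over both siRNAs (0.40, adjusted p = 0.0111, limma). A probe set named for NUTF2 and MT1L together rose by 1.07 and 1.02.

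In RefSeq gene order, 13 metallothionein genes and pseudogenes of the chromosome 16 cluster had a probe set, from MT4 at the first end to MT1X at the other. In siCt 10 of them were higher, in siCHD8 11 and in the average over both 11, none was lower, and the median averaged change was 0.79. MT3 and MT1E were the uncalled genes in the average. The 3 protein-coding genes on each side (NUDT21, OGFOD1 and BBS2; NUP93, SLC12A3 and HERPUD1) had a median averaged change of 0.04, with none higher and BBS2 lower by 0.35 (adjusted p = 0.01, limma). OGFOD1, of that group, was higher by 0.47 in siCt cells (adjusted p = 0.0193). The flanking genes were taken by position after the values of the cluster had been seen.

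**Figure D2:**
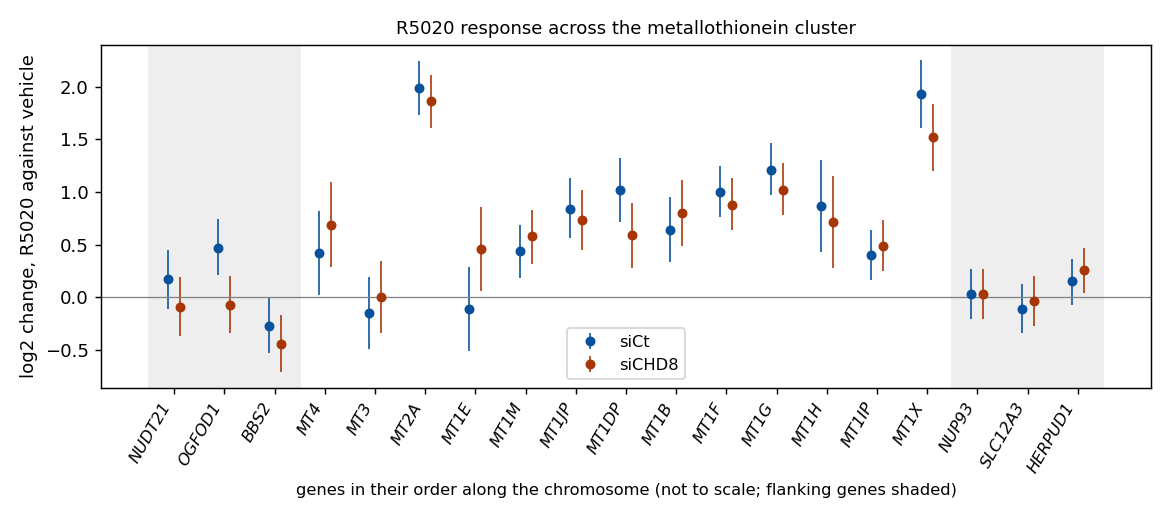
Log2 change with R5020 (y axis) of 13 metallothionein genes and pseudogenes and 6 flanking genes (shaded) in their order on chromosome 16 (x axis, not to scale), in siCt and siCHD8 cells. Points are limma estimates and bars 95% intervals; the changes of MT2A and MT1X, at 1.99 and 1.93 in siCt, stand above those of the genes between them, and the flanking genes lie between -0.44 and 0.47.

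MTF1, the zinc-sensing activator of metallothionein genes, rose with them. It had 5.97, 6.21 and 5.79 with vehicle and 6.95, 6.74 and 6.77 with R5020 in siCt, and 6.17, 6.24 and 6.10 against 6.74, 6.95 and 6.79 in siCHD8. Every R5020 array was above every vehicle array. The rise was 0.83 ± 0.12 in siCt (1.78-fold, adjusted p = 0.00018, limma) and 0.66 ± 0.12 in siCHD8 (1.58-fold, adjusted p = 0.00172).

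Of the SLC30 exporters, 2 of 10 rose with R5020 in siCt, where 8.1% of all probe sets did, and none passed the test in siCHD8. SLC30A1, the exporter of the plasma membrane, had 5.34, 5.33 and 5.14 with vehicle and 6.15, 6.19 and 6.01 with R5020 in siCt, and 5.62, 5.67 and 5.16 against 5.86, 5.71 and 5.69 in siCHD8. The siCt groups lie far apart. The siCHD8 groups are close but do not overlap, with the highest vehicle array at 5.67 and the lowest R5020 array at 5.69. All siCHD8 R5020 arrays lie below all siCt R5020 arrays, as 15.3% of all probe sets did. That knockdown difference in R5020 was -0.36 and was not called (adjusted p = 0.244, limma). The rise was 0.85 ± 0.13 in siCt (1.8-fold, adjusted p = 0.000389, limma) and the difference in siCHD8 was 0.27 ± 0.13 (adjusted p = 0.253). The latter was 0.11 without siCHD8 EtOH replicate 3, the vehicle array at 5.16. The difference between these responses was -0.58 ± 0.19, with a 95% interval of -0.98 to -0.17, an unadjusted p of 0.00822 and an adjusted p of 0.49, so that it did not pass the test over all probe sets. It was -0.44 with siCt EtOH replicate 3 and siCHD8 EtOH replicate 1 left out.

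SLC30A7, which loads zinc into the secretory pathway, had 7.31, 7.52 and 6.99 against 7.68, 7.65 and 7.69 in siCt and 7.49, 7.40 and 7.39 against 7.74, 7.86 and 7.64 in siCHD8. The groups do not overlap under either siRNA. It rose by 0.40 ± 0.13 in siCt (adjusted p = 0.0447, limma), and the 0.32 in siCHD8 was not called (adjusted p = 0.133), while the average of 0.36 was (adjusted p = 0.00842). The siCt call was near the threshold and was lost without siCt EtOH replicate 1 (adjusted p = 0.0828) or 3 (0.164, with a rise of 0.26), without any of the siCt R5020 arrays (0.0879 to 0.122), and without siCHD8 EtOH replicate 2 (0.0543) or any siCHD8 R5020 array (0.0548 to 0.0615), which enter only through the shared estimate of the spread. It was also lost under quantile normalization (0.113), with all probe sets of the table tested (0.0846) and with the compared conditions fitted alone (0.0906). The other 8 exporters, among them SLC30A5 and SLC30A6, which act as a pair in the Golgi, differed by -0.32 to 0.36 in siCt and were not called. The 0.36 was that of SLC30A6 and was 0.15 without siCt EtOH replicate 3, which held its lowest value, 6.86. SLC30A8, the transporter of insulin granules, and SLC30A10, a manganese exporter, lay under the olfactory receptor level, with means of 1.91 and 2.20.

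Of the 14 SLC39 importers, 1 rose and 1 fell with R5020 under either siRNA. Of all probe sets 8.1% rose and 6% fell in siCt, and 6.04% and 5.43% in siCHD8. SLC39A14, which carries iron and manganese as well as zinc, had 6.24, 6.32 and 6.17 with vehicle and 7.33, 7.29 and 7.16 with R5020 in siCt, and 6.15, 5.87 and 6.05 against 7.31, 7.36 and 7.14 in siCHD8. The R5020 groups of the siRNAs overlap. All siCHD8 vehicle arrays lie below the siCt vehicle arrays, as 8.06% of all probe sets did, with the nearest at 6.15 and 6.17. That knockdown difference in vehicle was -0.22 and was not called (adjusted p = 0.446, limma). The rise was 1.02 ± 0.11 in siCt (2.03-fold, adjusted p = 1.12e-05, limma) and 1.25 ± 0.11 in siCHD8 (2.38-fold, adjusted p = 1.49e-06).

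SLC39A1, a widely expressed importer of the plasma membrane, moved the other way. It had 8.00, 8.02 and 8.28 with vehicle and 7.41, 7.36 and 7.22 with R5020 in siCt, and 7.74, 7.57 and 7.46 against 6.89, 6.76 and 6.87 in siCHD8. Within each siRNA all R5020 arrays lie below all vehicle arrays, and within each treatment all siCHD8 arrays lie below all siCt arrays. R5020 lowered it by 0.77 ± 0.11 in siCt (0.588-fold, adjusted p = 0.000241, limma) and by 0.75 ± 0.11 in siCHD8 (0.595-fold, adjusted p = 0.000353).

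The other 12 importers were not called for R5020. SLC39A6, known as an oestrogen-regulated gene of breast cancer, had 6.85, 7.19 and 6.82 against 7.34, 7.31 and 7.36 in siCt, a difference of 0.38 (adjusted p = 0.0597, limma; called under 7 of 25 alternatives), and 0.06 in siCHD8. SLC39A10, its partner in zinc uptake, had 4.84, 4.95 and 5.77 against 4.86, 4.69 and 4.79 in siCt and 5.59, 4.90 and 4.69 against 4.89, 4.76 and 4.40 in siCHD8. Its groups overlap, and its differences of -0.41 and -0.38 (adjusted p = 0.292 and 0.402) rest on single vehicle arrays, since they were -0.11 and -0.12 with siCt EtOH replicate 3 and siCHD8 EtOH replicate 1 left out. SLC39A13, an importer of the Golgi region, differed by -0.36 in siCt (adjusted p = 0.0825), where its highest value, 7.33, was on siCt EtOH replicate 3, and by -0.21 without that array (adjusted p = 0.291). SLC39A2 and SLC39A12, with means of 2.77 and 1.81, lay under the olfactory receptor level.

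**Figure D3:**
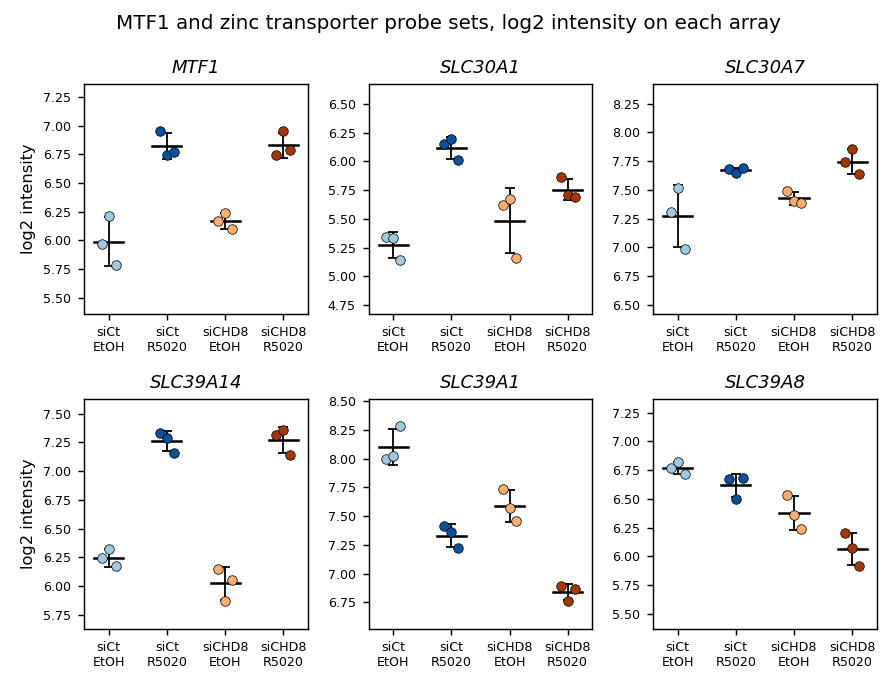
Log2 intensity (y axis, a separate range in each panel) of MTF1 and 5 zinc transporters on the 12 arrays, by siRNA and treatment (x axis). Points are arrays, horizontal bars the means and whiskers ± 1 SD (n = 3); SLC39A1 is lower with R5020 and, at either treatment, lower in siCHD8 cells, and the SLC30A1 arrays with R5020 lie lower in siCHD8 than in siCt, a difference of -0.36 that was not called (adjusted p = 0.244, limma).

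The question of the study was whether CHD8 depletion alters the progestin response. Over the 35 genes the changes with R5020 in siCt and in siCHD8 had a Pearson r of 0.911. This describes genes that are not independent. Of the 12 genes called higher in the average, 8 had the smaller rise in siCHD8. Over all probe sets tested the median absolute change was also smaller in siCHD8, 0.14 against 0.18 in siCt. The share with a smaller rise among all called probe sets was not counted. No gene of the 35 passed the test of the difference between responses with limma, nor did any of the 21214 probe sets. The lowest adjusted p among the 35 was 0.49. On simulated data this test recovered 0% of true log2 differences of 0.5 and 77.6% of those of 1, so it could miss differences of such sizes. Without adjustment 4 of the 35 had a p under 0.05, against 9.56% of all probe sets, and these were SLC30A1 (-0.58), SLC30A9, an organelle zinc transporter (-0.44), MT1E (0.57) and SLC39A13 (0.44). Under the alternatives the difference of MT1E ran from 0.32 to 0.77 and that of SLC30A9 from -0.56 to -0.24. That of SLC30A1 ran from -0.74 to -0.44, and none of these was called. Among the metallothioneins the differences ran from -0.41 to 0.57, and their 95% intervals reached from -0.86 to 1.14, so that changes of such a size remain possible. The methods of the study set a limit on the ratio of the linear folds, below 0.8 or above 1.2. Of the 10 genes past the study's limits in siCt, MT1X (0.75) and SLC30A1 (0.67) were beyond it, against 35% of the 1390 probe sets past those limits. That rule takes no account of the spread between arrays.

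**Figure D4:**
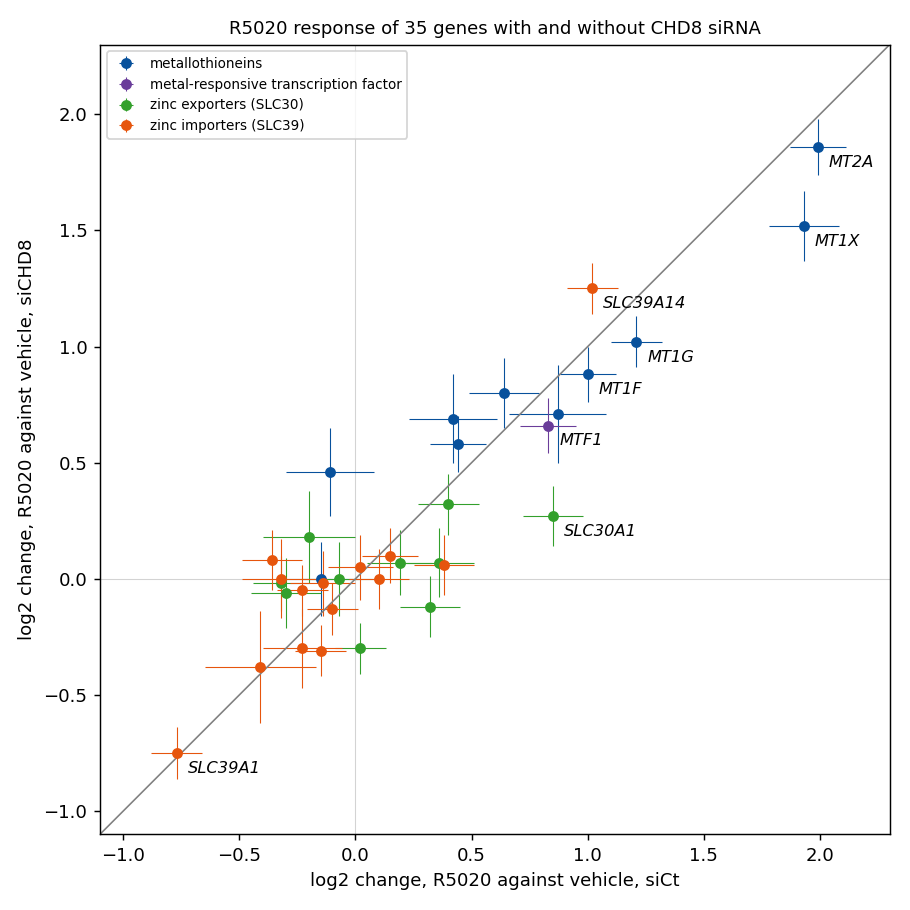
Log2 change with R5020 in siCHD8 cells (y axis) against that in siCt cells (x axis) for the 35 genes, coloured by family. Points are limma estimates, bars ± 1 SE and the grey line marks equal changes; MT2A, MT1X and SLC30A1 lie below the line and SLC39A14 above it, and no difference from the line passed the test over all probe sets.

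The knockdown of CHD8 gave calls among these genes only in the average over both treatments. In vehicle and in R5020 none of the 35 was called with limma, where 0.292% and 0.189% of all probe sets were, and 4 genes had an unadjusted p under 0.05 in each, against 12.1% and 13.9% of all. Averaged over the treatments SLC39A1 and SLC39A8 were lower, 5.71% of the 35, and none was higher. Of all probe sets 1.39% were lower and 0.372% higher. SLC39A1 was lower by 0.50 ± 0.08 (adjusted p = 0.00665), with 0.51 in vehicle (adjusted p = 0.0826) and 0.49 in R5020 (adjusted p = 0.0925). SLC39A8, an importer of zinc and manganese, had 6.77, 6.82 and 6.72 in siCt with vehicle and 6.53, 6.36 and 6.24 in siCHD8. With R5020 it had 6.67, 6.50 and 6.68 in siCt and 6.20, 6.07 and 5.92 in siCHD8. All siCHD8 arrays lay below all siCt arrays of the same treatment, as 8.06% of all probe sets did in vehicle and 15.3% in R5020. SLC39A8 was lower by 0.47 ± 0.08 (adjusted p = 0.00856), with 0.39 in vehicle (adjusted p = 0.16) and 0.55 in R5020 (adjusted p = 0.0627). The averaged knockdown differences of the 10 metallothioneins ran from -0.23 to 0.21, and none was called.

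**Figure D5:**
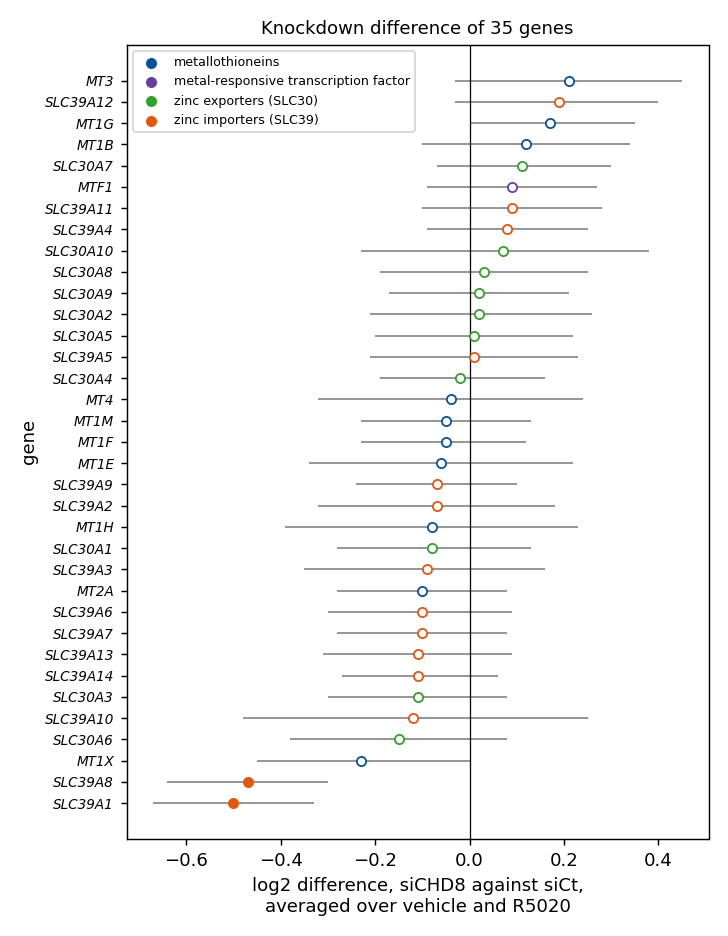
Log2 difference between siCHD8 and siCt, averaged over vehicle and R5020 (x axis), for each of the 35 genes (y axis), ordered by size and coloured by family. Points are limma estimates, filled where called, and bars 95% intervals; SLC39A1 and SLC39A8, at -0.50 and -0.47, stand apart from the other 33 genes.

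Other genes of metal handling were set beside these for the average of both siRNAs, in which 10.4% of all probe sets rose and 9.72% fell. Of 15 copper genes 6 rose and none fell, led by the metalloreductase STEAP4 (1.73), the copper transporter family member SLC31A2 (1.71), the copper-exporting ATPase ATP7B (1.16) and the metalloreductase STEAP2 (0.83). Of 9 iron genes 3 rose and 2 fell. The fallen ones were the iron exporter SLC40A1 (-1.17) and the iron importer SLC11A2 (-0.89), and those that rose included HMOX1 (0.62), which degrades haem. Of 9 genes of the metal and oxidant stress response, HMOX1 among them, 3 rose and 2 fell, with SLC7A11, the cystine transporter, at 0.69 and TXNRD1, thioredoxin reductase, at -0.88. GPR39, a zinc-sensing receptor, fell by 1.28, and TMEM163, the other gene of the zinc list, was not called (-0.16). TESMIN, a protein with metallothionein-like cysteine motifs, fell by 0.31 (adjusted p = 0.0132, limma).

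The 9 luminal epithelial markers lay above the olfactory receptor level, with means of 6.95 to 11.07, none of 7 blood and endothelial markers did, and 2 of 5 basal or mesenchymal and 3 of 6 fibroblast markers did. R5020 lowered 6 of the luminal markers in the average, among them PGR (-1.37) and FOXA1 (-1.53), and the summed luminal log2 level was 86.81 to 87.89 in siCt with vehicle and 81.43 to 82.07 with R5020. Of all probe sets 9.72% were lower in that average, as were 1 of the 5 basal or mesenchymal markers (KRT14), 1 of the 6 fibroblast markers (COL1A1) and none of the 7 blood and endothelial markers. Their part in the results above was not tested. With siCt EtOH replicate 3 and siCHD8 EtOH replicate 1 left out together, the calls for R5020 that were lost were those of SLC30A7 in siCt (0.26, adjusted p = 0.129, limma) and of MT1H (0.55, 0.149) and MT4 (0.61, 0.0988) in siCHD8. Calls gained were those of SLC30A7 in siCHD8 (0.35, adjusted p = 0.0472) and SLC39A6 in the average (0.25, adjusted p = 0.0349). For the knockdown they were those of SLC39A1 (-0.49, adjusted p = 0.0329) and SLC39A8 (-0.55, adjusted p = 0.031) in R5020 and of SLC30A6 in the average, at -0.30 (adjusted p = 0.0383) where it was -0.15 with all arrays. In these bulk samples, fewer cells with a transcript and less of it per cell cannot be told apart.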

How the data were processed

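Total RNA of 12 T47D-MTVL samples in 4 conditions was labelled with biotin and hybridised to Affymetrix human Gene ST arrays. Each deposited value is the log2 intensity of a probe set on an array. The authors read the scanned images with GeneChip Command Console and applied RMA, which corrects background, gives arrays a common distribution and summarises the probes of a set, and then used oneChannelGUI. Their versions are not given in the sources. Quantile normalization sets all arrays to nearly the same distribution, so a shift of all transcripts together could not be seen, and array medians were 4.52 to 4.62. Precision is limited by 3 arrays per condition.

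Of 33297 probe sets, 21214 had at least 1 gene symbol in the platform annotation and were tested; 19460 named 1 gene, 1754 several and 12083 none. By Entrez ID 19429 of the former matched RefSeq (GRCh38.p14), and no symbol changed. A mean per condition was fitted with limma (version 3.58.1, R 4.3.3) on all 12 arrays, with 7 contrasts and Benjamini-Hochberg adjustment over the tested probe sets. A gene was called at an adjusted p under 0.05, and SE and 95% intervals are those of limma. The procedure was tested on simulated data in which 67, 67 and 66 of the 21214 probe sets had true log2 changes of 0.5, 1 and 2. That share is smaller than the share called for R5020 in siCt, 8.1% higher and 6% lower. The adjustment depends on it, so the recovery given for R5020 need not hold for these data. Of changes of 0.5, it recovered 29.9% for R5020 in siCt and 28.4% for siCHD8 against siCt with vehicle. Of changes of 1, it recovered 98.5% and 95.5%. The difference between responses was harder to detect, with 0% recovered at 0.5, 77.6% at 1 and 100% at 2. All measured genes of the families could be named, with values by array for those called; of the other metal genes, the 10 largest averaged R5020 changes among those called. TMEM163, TESMIN, the pseudogenes and the flanking genes of the cluster were chosen after their values were seen. The genes and lists were chosen with earlier results of these data known. Alternatives covered the scaling (median centring or a further quantile normalization), the probe sets tested (without dim ones, or with those lacking a symbol), a trended and robust variance, array weights, the compared conditions alone, other limits, a replicate block and each array left out. Promoters were searched in Python (3.11.15; pandas, 2.3.3), and plots drawn in matplotlib (3.10.9).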

Additional observations from a re-analysis of the deposited data

How the results depend on the processing

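No called value changed direction in any of 25 alternatives, and 5892 of the values recomputed for single genes stayed on their side of the threshold, while 42 calls were lost and 44 gained. The replicate block gave the same counts as the fit without it: 11 higher and 1 lower in siCt, 10 and 1 in siCHD8, 12 and 1 in the average, 0 for the knockdown in vehicle, in R5020 and for the difference of responses, and 0 and 2 for the averaged knockdown. The numbers did not pair the arrays: deviations of same-numbered arrays correlated at -0.247 to 0.196, 4 of 18 pairs were over 0.1, and 5 of 12 arrays correlated best with their own number. Genes called higher with R5020 numbered 9 to 12 in siCt with 1 array left out, 8 to 11 in siCHD8 and 12 to 13 in the average; under the other alternatives they were 9 to 12, 7 to 10 and 8 to 13.

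Counts of genes called lower were small and moved more. With R5020 in siCt (main value 1) there were 2 under quantile normalization, 3 at an adjusted p under 0.10 and 1 to 2 with 1 array left out, where SLC39A13 joined without siCt EtOH replicate 2. In siCHD8 there were 2 under quantile normalization and 2 at an adjusted p under 0.10. In the average there were 2 under quantile normalization, with dim probe sets left out, with a trended and robust variance, with array weights and at an adjusted p under 0.10, and 1 to 3 with 1 array left out, the highest without siCHD8 EtOH replicate 3 and 2 without siCHD8 R5020 replicate 1. For the knockdown in vehicle (main value 0) there was 1 with a trended and robust variance and 1 at an adjusted p under 0.10. For the knockdown in R5020 (main value 0) there was 1 with dim probe sets left out, 2 with a trended and robust variance, 2 with array weights, 2 with the compared conditions alone, 2 at an adjusted p under 0.10, 2 with siCt EtOH replicate 3 and siCHD8 EtOH replicate 1 left out together, and 0 to 1 with 1 array left out (SLC39A8, without siCHD8 EtOH replicate 1). For the averaged knockdown (main value 2) there were 0 at the study's limits, because both folds are under 1.5, and 3 with siCt EtOH replicate 3 and siCHD8 EtOH replicate 1 left out together, where SLC30A6 joined. The cause of the other shifts was not tested. MT1M and MT4, SLC30A8 and SLC30A10, SLC39A2 and SLC39A12 have no value where dim probe sets are left out.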
